A study of Mus musculus with 6 samples.

Results

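The immediate early genes Fos, Fosb, Jun, Junb, Jund, Egr1, Egr2, Egr3, Nr4a1 and Nr4a3 were compared between CD36+ NK and CD36- NK cells from fibrotic livers. They were taken by gene symbol, and 10 of 10 were found among the 57180 genes of the table and were among the 14761 genes with enough counts to be tested. None of the 10 passed the test between the groups, which 5.96% of all tested genes passed. Of the 10 genes, 6 were among the most expressed genes of the libraries, and the spread of the 10 between replicates, over all 6 libraries, was above that of the median gene. Both groups came from male C57BL/6J mice aged 6 to 8 weeks that had received CCl4 by intraperitoneal injection (2.5 ml/kg of a 20% solution in olive oil, 2 injections per week for 4 weeks) and were harvested 48 h after the last injection. NK cells were sorted into CD36+ NK and CD36- NK, with 3 libraries each, and no cells from untreated mice were compared here. The study's flow cytometry defined NK cells as CD3- NK1.1+, and its methods state no gate for the sort. Neither the labels nor the methods say whether a library held 1 animal or a pool, and p-values therefore measure the spread between these libraries. The libraries held 10292480 to 13787189 counts.

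The names of the sequencing libraries write the sign of CD36 in the opposite way to the sample titles, and the titles were followed. Cd36, the gene of the sorted fatty acid receptor, had 1232, 3569 and 2859 counts in the libraries titled CD36+ NK and 186, 359 and 175 counts in those titled CD36- NK (log2 ratio of CD36+ NK over CD36- NK 3.27, with an SE of 0.426, and adjusted p = 0.00615 in edgeR's quasi-likelihood fit, which gave each adjusted p below). The markers of the sorted cell type moved with the groups. All 10 NK lineage markers were lower in CD36+ NK (median log2 ratio -2.45). Their summed level ranged over 917 to 1101 CPM (counts divided by the TMM-scaled library size) across CD36+ NK libraries and 4902 to 6210 CPM across CD36- NK libraries. Of the 9 tested macrophage markers, 3 were higher in CD36+ NK and none was lower (0 passed without CD36+ NK replicate 2 or 3 or CD36- NK replicate 1 or 3, and 8 without CD36- NK replicate 2), and the list summed to 6556 to 9070 CPM against 2417 to 5696 CPM in CD36- NK. The 8 B cell markers summed to 4615 to 5142 CPM and 3035 to 3479 CPM, respectively, and 1 of them, Cr2 (named after its value was seen), was higher, though not without CD36+ NK replicate 2 or 3 or CD36- NK replicate 1 or 3. CD36+ NK replicate 1 stood apart from its group. Its T cell markers summed to 506 CPM, against 122 and 130 CPM in CD36+ NK replicates 2 and 3, and its neutrophil markers to 4211 CPM, against 721 and 897 CPM. Without it, none of the 10 immediate early genes passed either, with log2 ratios from -1.57 to 0.53. In such bulk libraries, fewer cells of a type and less RNA per cell cannot be told apart.

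Immediate early genes are transcribed within minutes of a stimulus from factors that are already in the cell, without new protein synthesis. Fos and Jun proteins pair into AP-1, EGR proteins are zinc finger factors, and NR4A proteins are orphan nuclear receptors. In lymphocytes the 3 families are induced by activating receptors and by calcium and MAP kinase signalling. They are also known to be induced while a tissue is digested and its cells are sorted, so that their mRNA can report both the state of the cell and its handling.

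Promoters of immediate early genes are known to be bound by serum response factor and CREB, which relay such signals. RefSeq promoter windows of the GRCm38.p6 build ran from 250 bases before to 50 bases after the start. They were scanned for 8 of the 10 genes, with 5 alternative starts for Egr2. Egr1 was left out of the scan, and Egr3 had no window. The 250 bases before the start are shown for Fos, the gene with the lowest SD between replicates over all 6 libraries, for Nr4a1 and Nr4a3, which had log2 ratios of opposite sign, and for 1 of the 4 Egr2 starts with a CArG box. Capitals mark TGACG or its reverse complement (the core of the cyclic AMP response element bound by CREB and AP-1 proteins), the TATA box letters TATAAA, the EGR letters GCGNGGGCG on either strand, and the CArG box bound by serum response factor.
Fos, chr12:85473640-85473889, plus strand: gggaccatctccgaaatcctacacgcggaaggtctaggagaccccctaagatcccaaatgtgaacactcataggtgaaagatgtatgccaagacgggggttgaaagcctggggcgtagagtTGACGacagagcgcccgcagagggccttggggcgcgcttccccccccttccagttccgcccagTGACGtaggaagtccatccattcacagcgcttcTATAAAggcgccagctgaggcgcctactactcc
Nr4a1, chr15:101266596-101266845, plus strand: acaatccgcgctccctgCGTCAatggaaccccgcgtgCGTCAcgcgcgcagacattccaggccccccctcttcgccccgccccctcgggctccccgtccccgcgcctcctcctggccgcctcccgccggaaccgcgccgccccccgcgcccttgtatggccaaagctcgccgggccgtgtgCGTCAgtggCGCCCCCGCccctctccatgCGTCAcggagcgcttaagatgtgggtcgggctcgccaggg
Nr4a3, chr4:48045055-48045304, plus strand: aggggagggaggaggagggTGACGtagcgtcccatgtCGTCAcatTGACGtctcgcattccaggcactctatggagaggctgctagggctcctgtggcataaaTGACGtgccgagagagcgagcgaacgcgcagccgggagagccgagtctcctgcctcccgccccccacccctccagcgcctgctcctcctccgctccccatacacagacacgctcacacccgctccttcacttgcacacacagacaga
Egr2, chr10:67537619-67537868, plus strand: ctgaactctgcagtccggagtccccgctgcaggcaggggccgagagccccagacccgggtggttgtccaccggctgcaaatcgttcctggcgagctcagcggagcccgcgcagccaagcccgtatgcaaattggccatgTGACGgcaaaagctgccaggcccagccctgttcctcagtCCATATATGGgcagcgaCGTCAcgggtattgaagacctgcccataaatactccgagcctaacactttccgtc

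This core was found in 2 places before the start of Fos, 4 of Nr4a1, 4 of Nr4a3 and 2 of this Egr2 start, counting both strands. Of 32851 windows of the same length in the table, 20.8% held it at least 1 time. The full element TGACGTCA, which contains the core, was in 1.79% of all windows and in none of the 12 windows of these genes. A CArG box was in 1.63% of all windows and in 4 of the 5 Egr2 windows, 3 of which overlap and share 1 box. Sites more than 250 bases before a start were not searched, nor were Egr1 and Egr3. A missing match therefore does not show that a gene lacks such a site. The EGR letters were in 5.55% of all windows and were found in Fosb and Nr4a1. The AP-1 letters TGANTCA (7.81% of all windows) and the NR4A letters AAAGGTCA (1.51%) had no match in the windows of these genes. TATAAA, in 13.6% of all windows, was found 33 to 28 bases before the start of Fos and directly after the annotated start of Junb. The windows of Jun and Jund held none of the motifs searched. These are matches of letters and not measured binding.

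Per kilobase, 6 of the 10 genes were abundant transcripts. Levels between genes were compared as CPM per kilobase of exon union, the exon length in GENCODE vM21 with overlaps counted once. Junb had the highest level at 900 ± 221 (SD over the 6 libraries) and was ranked between 27 and 74 of 51884 genes in each library. Fos was next at 697 ± 99.6, then Jund at 658 ± 105, Jun at 412 ± 62.4, Nr4a1 at 319.7 ± 99.1 and Fosb at 246 ± 44.7. Egr1 followed at 72.2 ± 21.6, Egr3 at 20.1 ± 6.55, Nr4a3 at 6.42 ± 4.72 and Egr2 at 6.01 ± 2.46. The median tested gene had 6.56 to 6.75 CPM per kilobase, so Nr4a3 and Egr2 were near the middle of all tested genes. The order of Fos and Jund held in 4 of 6 libraries and that of Nr4a3 and Egr2 in 3 of 6, so that these neighbours were not separated. The steps from Jund to Jun (1.60-fold), Fosb to Egr1 (3.40-fold) and Egr1 to Egr3 (3.60-fold) were those at which the ranges over the 6 libraries did not overlap, and the ranges of all other neighbours overlapped. The 10 genes took 0.749% to 1.10% of all counts of a library.

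**Figure D1:**
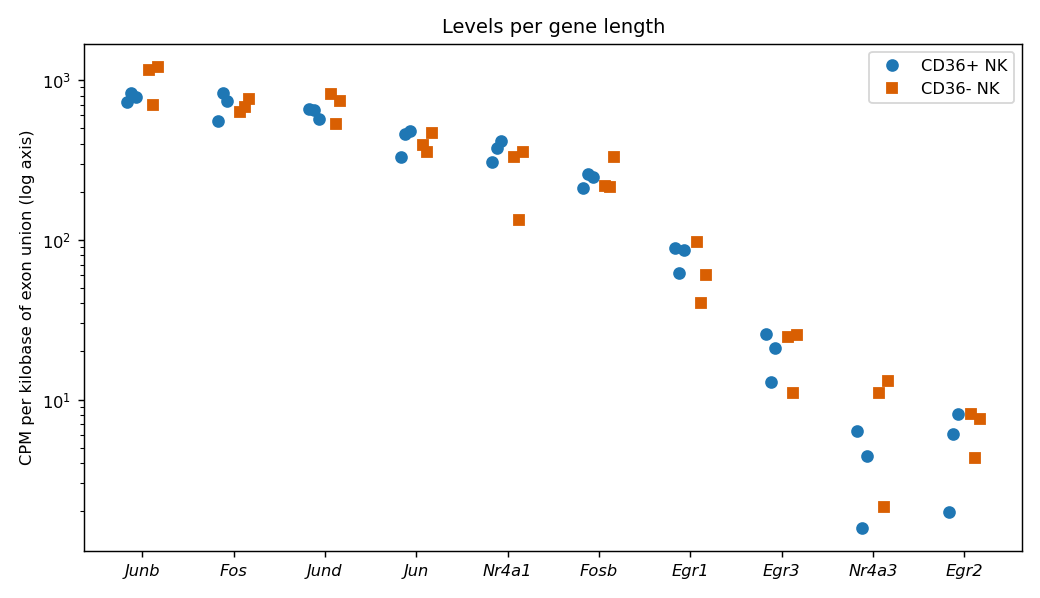
Levels of the 10 genes per gene length, as CPM per kilobase of exon union on a log axis, with 1 point per library (circles, CD36+ NK; squares, CD36- NK). The highest library was Junb at 1206 and the lowest was Nr4a3 at 1.57, and the points of the 2 groups overlap for each gene.

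The deposited FPKM values gave another order for some of these genes. There Jund was above Fos in 6 of 6 libraries, at 658 ± 109 against 431 ± 56.4 FPKM, and Fosb fell to 92.5 ± 16.1 FPKM. The gene length implied by the deposited counts and FPKM was 16525 bases for Fosb, whose span in the table is 7356 bases, and 3792 bases for Fos, whose span is 3384 bases. For Egr3 it was 9814 bases, the sum of its 4 transcripts in GENCODE vM21. The implied length was longer than the gene in 8.11% of 12464 genes, so FPKM gives such genes too low a level, whereas the comparison of 1 gene between libraries is not affected.

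The Fos proteins bind DNA as a pair with a Jun protein. Fos (ENSMUSG00000021250, chromosome 12, 85520664-85524047 in the coordinates of the table, which names no build) had 1296, 1952 and 1738 CPM in CD36+ NK replicates 1 to 3 and 1478, 1588 and 1781 CPM in CD36- NK replicates 1 to 3. The highest and the lowest library were both CD36+ NK. The log2 ratio of CD36+ NK over CD36- NK was 0.04 (SE 0.164, adjusted p = 0.913, edgeR), with a 95% interval from 0.788- to 1.34-fold. Fosb (ENSMUSG00000003545, chromosome 7, 19036621-19043976), which encodes a second Fos protein and a truncated form by splicing, had 1310, 1609 and 1534 CPM in the 3 CD36+ NK libraries and 1358, 1341 and 2048 CPM in the 3 CD36- NK libraries. One CD36- NK library, replicate 3, was above all others. Fosb had a log2 ratio of -0.09 (SE 0.185, edgeR adjusted p = 0.808), with an interval from 0.693- to 1.27-fold.

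The Jun proteins pair with each other and with Fos proteins. Jun (ENSMUSG00000052684, chromosome 4, 94937271-94940459), the founding member, had 1054, 1464 and 1520 CPM in the 3 CD36+ NK libraries and 1247, 1128 and 1477 CPM in the 3 CD36- NK libraries, and the groups overlapped over nearly their whole range. Jun had a log2 ratio of 0.07 (SE 0.170, edgeR adjusted p = 0.848). Junb (ENSMUSG00000052837, chromosome 8, 85701113-85705347), a weaker activator that can oppose Jun, had 1680, 1914 and 1802 CPM in the 3 CD36+ NK libraries and 2643, 1606 and 2776 CPM in the 3 CD36- NK libraries. CD36- NK replicates 1 and 3 were above every CD36+ NK library, and replicate 2 was below every one. This gave Junb a log2 ratio of -0.38 (SE 0.204, edgeR adjusted p = 0.296), with an interval from 0.551- to 1.07-fold. Without CD36- NK replicate 2 the value for Junb was -0.59 (edgeR adjusted p = 0.0216), below a 2-fold change, and without CD36- NK replicate 3 it was -0.25 (edgeR adjusted p = 0.570). Jund (ENSMUSG00000071076, chromosome 8, 71151599-71153265), which is expressed in resting cells and depends less on stimulation than the others, had 1092, 1079 and 947 CPM in the 3 CD36+ NK libraries and 1359, 883 and 1227 CPM in the 3 CD36- NK libraries. Jund had a log2 ratio of -0.15 (SE 0.167, edgeR adjusted p = 0.624), again with the lowest value in CD36- NK replicate 2. With 1 library left out it ran from -0.31, without that library, to -0.03, without CD36- NK replicate 1.

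EGR proteins act downstream of the ERK kinases, and Egr2 and Egr3 are known to restrain activation in T cells. Egr1 (ENSMUSG00000038418) had 399, 276 and 385 CPM in the 3 CD36+ NK libraries and 433, 181 and 268 CPM in the 3 CD36- NK libraries, so that the latter group held both the highest and the lowest library. Egr1 had a log2 ratio of 0.26 (SE 0.308, edgeR adjusted p = 0.652), and the interval ran from 0.727- to 1.99-fold. With 1 library left out the value for Egr1 ran from 0.01, without CD36- NK replicate 2, to 0.64, without CD36- NK replicate 1 (edgeR adjusted p = 0.985 and 0.174). Egr2 (ENSMUSG00000037868, chromosome 10, 67371305-67378018) was low, with 6.68, 20.6 and 27.4 CPM in CD36+ NK and 27.7, 14.7 and 25.5 CPM in CD36- NK, from 75 to 360 counts per library. CD36+ NK replicate 1 stood below the other 5 libraries. Egr2 had a log2 ratio of -0.31 (SE 0.478, edgeR adjusted p = 0.745), and a change from 0.371- to 1.76-fold was within its interval. Egr3 (ENSMUSG00000033730, chromosome 14, 70314652-70320063) had 113, 56.5 and 92.5 CPM in CD36+ NK and 108, 48.6 and 112 CPM in CD36- NK. Each group held 1 low library, replicate 2 in both, and the log2 ratio was -0.04 (SE 0.358, edgeR adjusted p = 0.963).

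The 2 NR4A genes had the largest log2 ratios, in opposite directions, and neither passed the test. Nr4a1 (ENSMUSG00000023034, chromosome 15, 101152150-101172676), which encodes Nur77, a marker of recent antigen receptor signalling in lymphocytes, had 1077, 1325 and 1460 CPM in the 3 CD36+ NK libraries and 1164, 465 and 1239 CPM in the 3 CD36- NK libraries. CD36- NK replicate 2 stood below the other 5 libraries, and the other libraries of the 2 groups overlapped. Nr4a1 had a log2 ratio of 0.43 (SE 0.344, edgeR adjusted p = 0.494), with an interval from 0.768- to 2.36-fold. With 1 library left out it ran from 0.10, without CD36- NK replicate 2, to 0.66, without CD36- NK replicate 3 (edgeR adjusted p = 0.748 and 0.387). Nr4a3 (ENSMUSG00000028341, chromosome 4, 48045153-48086447), which encodes the related receptor NOR1, had 38.0, 9.42 and 26.4 CPM in CD36+ NK and 66.0, 12.6 and 78.1 CPM in CD36- NK. Replicate 2 was the lowest library of each group, 4.04-fold below the highest of CD36+ NK and 6.18-fold below the highest of CD36- NK. Nr4a3 had a log2 ratio of -1.09 (SE 0.697, edgeR adjusted p = 0.381), and its interval from 0.150- to 1.46-fold was the widest of the 10 genes. With 1 library left out it ran from -1.57, without CD36+ NK replicate 1, to -0.68, without CD36- NK replicate 3 (edgeR adjusted p = 0.275 and 0.693). The log2 ratio was -0.70 without CD36+ NK replicate 2. The lowest adjusted p of these fits was 0.106 (edgeR), without CD36- NK replicate 2, where the log2 ratio was -1.55.

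**Figure D2:**
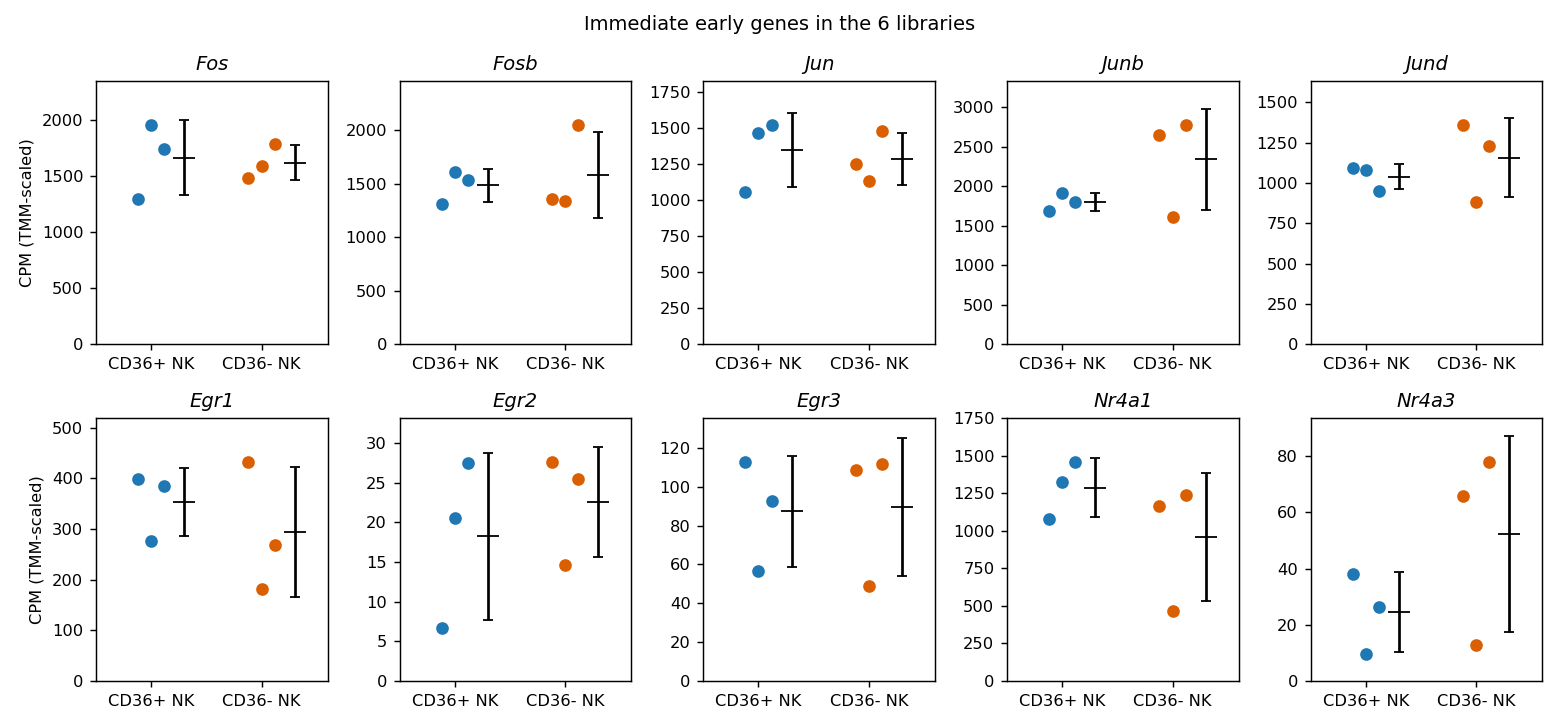
CPM of the 10 genes in each library, with CD36+ NK on the left and CD36- NK on the right of each panel, replicates 1 to 3 from left to right within a group, and bars for the mean and SD of 3 libraries. The groups overlap in 10 of 10 panels, and CD36- NK replicate 2 is the lowest CD36- NK point in 9 of them.

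Among all tested genes, 880 (5.96%) passed an adjusted p below 0.05 with a fold change above 2, of which 440 were higher (2.98%) and 440 lower (2.98%) in CD36+ NK. Of the 10 immediate early genes none passed, and none had an unadjusted p below 0.05 in edgeR's quasi-likelihood test, in DESeq2 or in edgeR's exact test, where 26.3% of all tested genes had such a p in the first of these. The libraries of the groups were without overlap in 0 of the 10 genes and in 32.8% of all tested genes. The log2 ratio was above 0 in 4 genes and below 0 in 6, with a median of -0.07 over the 10 genes and 0.01 over all tested genes. The median size of the change, regardless of sign, was 0.21 for the 10 genes and 0.23 for all tested genes. The 95% interval lay within a 2-fold change in either direction for 7 genes, the exceptions being Egr2, Nr4a1 and Nr4a3. For these 3 genes a 2-fold difference was not excluded by the interval.

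**Figure D3:**
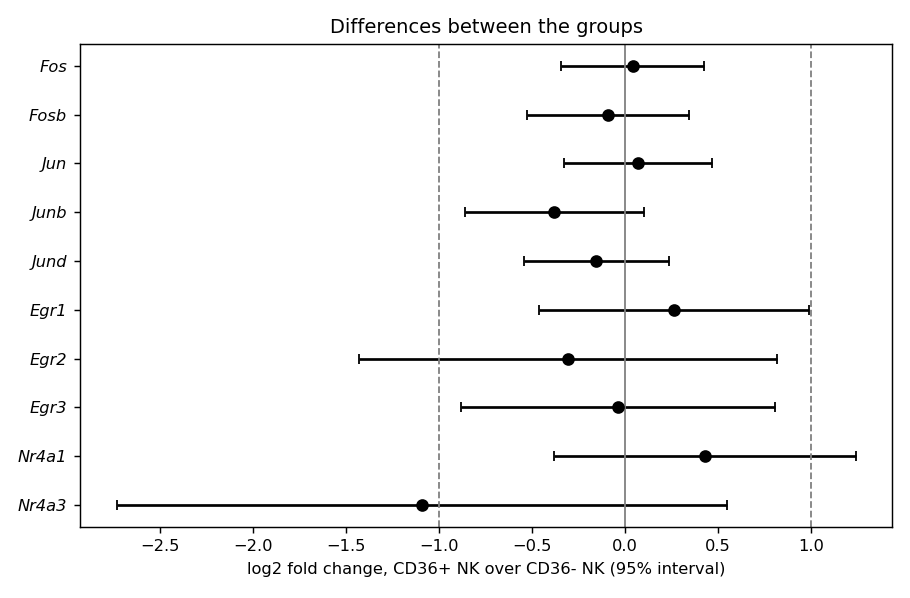
The log2 ratio of CD36+ NK over CD36- NK for each of the 10 genes, with its 95% interval from edgeR's quasi-likelihood fit. Dashed lines mark a 2-fold change, the intervals of 10 of 10 genes include 0, and that of Nr4a3 reaches from -2.73 to 0.55.

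The spread between replicates of these genes was larger than that of the median gene when all 6 libraries were used, and part of it rested on single libraries. The SD of log2 CPM within groups (with 2 CPM added) was above the median of all tested genes, 0.168, in 10 of 10 genes, and their median SD was 0.401. It was lowest in Fos (0.236, percentile 71.5 of all tested genes), Jund (0.243) and Jun (0.247). It was highest in Nr4a3 (1.16, percentile 99.7), Egr2 (0.729, percentile 98.2), Egr3 (0.587), Nr4a1 (0.580) and Egr1 (0.487). Over all 6 libraries the SDs of the AP-1 genes (0.236 to 0.316) lay below those of the EGR and NR4A genes (0.487 to 1.16). This order did not hold without CD36- NK replicate 2, where Nr4a1 had an SD of 0.165, or without CD36- NK replicate 1, where Junb had 0.400 and Egr1 0.348. Without CD36- NK replicate 2, 7 of the 10 genes were above the median of all tested genes (0.166), the exceptions being Junb (0.0754), Jund (0.109) and Nr4a1, and Egr3 and Nr4a3 were at 0.355 and 0.671. Without CD36+ NK replicate 1, 8 of the 10 were above it, with Fos at 0.127 and Jun at 0.141 below it, and Egr2 was at 0.372. Without CD36- NK replicate 3, 9 of the 10 were above it, and Fosb, at 0.110, was not.

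Part of this spread was shared by library. CD36- NK replicate 2 was the lowest of the 6 libraries for 5 genes (Junb, Jund, Egr1, Egr3 and Nr4a1) and the highest for none, and CD36+ NK replicate 1 was the lowest for Fos, Fosb, Jun and Egr2. CD36- NK replicate 3 was the highest of its group for 7 genes. Averaged over the 10 genes, the deviation of log2 CPM from the mean of 6 libraries was -0.12, -0.13 and 0.12 in CD36+ NK replicates 1 to 3 and 0.29, -0.52 and 0.35 in CD36- NK replicates 1 to 3. The widest difference between libraries was thus within the CD36- NK group. The labels used here give no time from tissue to lysis, and the part of handling in these deviations was not tested.

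**Figure D4:**
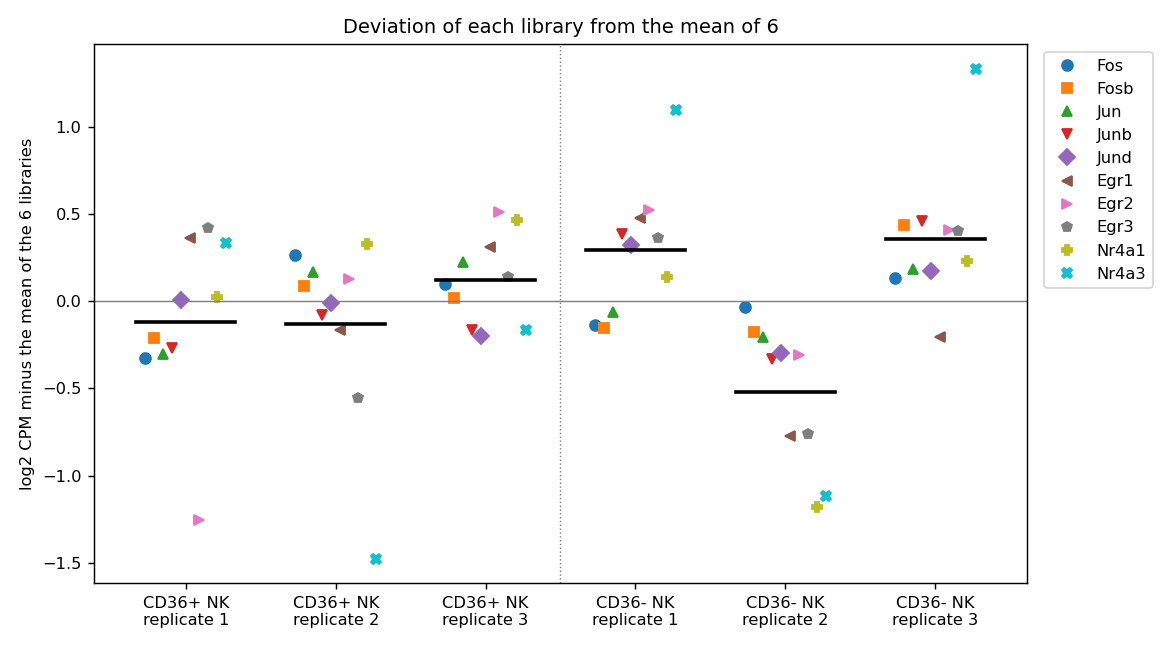
Deviation of log2 CPM from the mean of the 6 libraries for each gene (symbols) and the mean of the 10 genes (black bars), by library. The bar of CD36- NK replicate 2 is at -0.52 and those of the other 2 CD36- NK libraries are at 0.29 and 0.35, while the 3 CD36+ NK bars lie between -0.13 and 0.12.

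The 5 genes whose deviations were nearest to this mean profile, among 9999 genes with at least 10 CPM on average, were Coq10b, H1f2, Mafk, Sqstm1 and Rpl27. The root mean square difference over the 6 libraries was 0.0598 (log2) for Coq10b, a coenzyme Q-binding protein of mitochondria, and 0.0915 for Rpl27, a ribosomal protein, against a median of 0.339 for all these genes. H1f2, a linker histone, and Sqstm1, the autophagy receptor p62, had log2 ratios of -0.26 and -0.16 (edgeR adjusted p = 0.518 and 0.686). Mafk is itself a partner of AP-1-related factors and had 181, 169 and 181 CPM in the 3 CD36+ NK libraries and 211, 120 and 233 CPM in the 3 CD36- NK libraries. Likeness over 6 libraries is a description, and each gene's values come from the same 6 libraries.

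Within each family, the share of each gene in the summed FPKM of the family was given as a description, without a test. Junb held 42.6%, 42.9% and 42.8% of the Jun family in CD36+ NK and 48.8%, 44.1% and 50.2% in CD36- NK, so that the 3 CD36+ NK libraries lay within 1 percentage point of each other and below all CD36- NK libraries. Jun held 19.3% to 26.1% against 16.6% to 22.4%, with overlap. Fos held 82.8% ± 1.49 (SD, n = 3) of Fos plus Fosb in CD36+ NK and 81.8% ± 2.42 in CD36- NK. With lengths from the exon union the share of Fos was 74.6% ± 1.98 and 73.3% ± 3.16, respectively. Egr1 held 86.5% ± 0.958 of the EGR sum in CD36+ NK and 82.9% ± 3.58 in CD36- NK. With lengths from the exon union the mean share of Egr1 was lower, at 75.9% and 70.6%, respectively. That of Egr3 was then 18.7% and 22.1%, against 9.6% and 11.7% by FPKM. Nr4a1 held 99.3% ± 0.481 of Nr4a1 plus Nr4a3 in CD36+ NK and 98.3% ± 0.639 in CD36- NK, and the shares of the 2 groups overlapped.

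Other genes of these families and of their signalling pathway were examined as well. Atf3, a stress-induced partner of Jun proteins, had 361 ± 69.8 against 266 ± 101 CPM (SD, n = 3, CD36+ NK first; log2 ratio 0.44, edgeR adjusted p = 0.390).

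None of 12 SRF, ternary complex and CREB factors passed, with a median log2 ratio of -0.24 and 10 of 12 values below 0. The most expressed of them was Mrtfa, an SRF coactivator, whose 3 CD36+ NK libraries (126 to 138 CPM) were below the 3 CD36- NK libraries (152 to 175 CPM), with a log2 ratio of -0.28 (edgeR adjusted p = 0.104). The CREB coactivator Crtc2 had a log2 ratio of 0.01 (edgeR adjusted p = 0.958). None of the 20 tested MAP kinase cascade genes passed (median -0.07), and the most expressed, Mapkapk2, had a log2 ratio of 0.14 (edgeR adjusted p = 0.459), while that of the ERK-activated kinase Rps6ka1 was 0.00 (edgeR adjusted p = 0.987). Of 23 tested immediate early genes outside these families none passed, with a median of 0.00 and a range from -0.76 to 0.72. Among them Btg1, an antiproliferative gene of resting lymphocytes, had 1384 ± 58.9 against 1381 ± 224 CPM, and Klf6, a zinc finger factor, had 736 ± 146 against 746 ± 231 CPM.

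Of 18 feedback inhibitors of the response, 1 was lower in CD36+ NK and none was higher (median -0.16). Spry2, an inhibitor of receptor tyrosine kinase and ERK signalling, had 47.6, 37.5 and 39.9 CPM in the 3 CD36+ NK libraries and 221, 126 and 304 CPM in the 3 CD36- NK libraries, without overlap (log2 ratio -2.38, SE 0.306, edgeR adjusted p = 0.00592). Spry2 did not pass with both replicate 1 libraries left out (log2 ratio -2.48, edgeR adjusted p = 0.0607). The median of the NK lineage markers, -2.45, was near this value, and their part in it was not tested. Zfp36l2, which binds and destabilises mRNAs with AU-rich elements, was 0.68 lower on the log2 scale (edgeR adjusted p = 0.0275), below a 2-fold change. Its adjusted p was 0.0538 to 0.0989 in edgeR's fits without any 1 library other than CD36- NK replicate 2. In the fit blocked on replicate number it was 0.0557 (edgeR adjusted p). Its relative Zfp36, itself an immediate early gene, had 1225, 1705 and 1549 CPM in the 3 CD36+ NK libraries and 1148, 1074 and 1142 CPM in the 3 CD36- NK libraries (log2 ratio 0.41, edgeR adjusted p = 0.0990), without overlap but short of the test.

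Of 13 heat shock genes, which are also induced by tissue dissociation, 1 was higher in CD36+ NK and none was lower (median 0.20). Hspa1a, the inducible HSP70, had 258, 373 and 466 CPM in the 3 CD36+ NK libraries and 141, 163 and 138 CPM in the 3 CD36- NK libraries (log2 ratio 1.31, SE 0.210, edgeR adjusted p = 0.0117). It did not pass without CD36+ NK replicate 2 or without replicate 1 or 3 of CD36- NK (lowest log2 ratio 1.26). The constitutive Hsp90ab1 and Hspa8 had log2 ratios of 0.20 and -0.22 (edgeR adjusted p = 0.289 and 0.428).

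Of 14 NK cell activation genes, many of them known targets of AP-1 and NFAT, 6 were lower in CD36+ NK and none was higher (median log2 ratio -0.95). Ifng, the main cytokine of NK cells, had 38.6, 56.3 and 59.2 CPM in the 3 CD36+ NK libraries and 211, 218 and 493 CPM in the 3 CD36- NK libraries (log2 ratio -2.58, SE 0.371, edgeR adjusted p = 0.00800). The costimulatory receptor Tnfrsf9 fell by 1.79 and the adhesion receptor Crtam by 1.71 on the log2 scale (edgeR adjusted p = 0.00624 and 0.00717), and the chemokines Xcl1, Ccl3 and Ccl4 passed as well. The factors Irf8 and Nfatc1, the most expressed of the list, had log2 ratios of -0.42 and -0.22 (edgeR adjusted p = 0.503 and 0.292). Gzma, the most expressed NK lineage marker, fell by 2.57 on the same scale (edgeR adjusted p = 0.000428). The NK lineage markers were lower in the same libraries, and their part in this result was not tested. Ccl3 and Ccl4 are also made by macrophages and monocytes. The 10 immediate early genes, which many leukocytes express, had a median of -0.07 beside these lists.

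**Figure D5:**
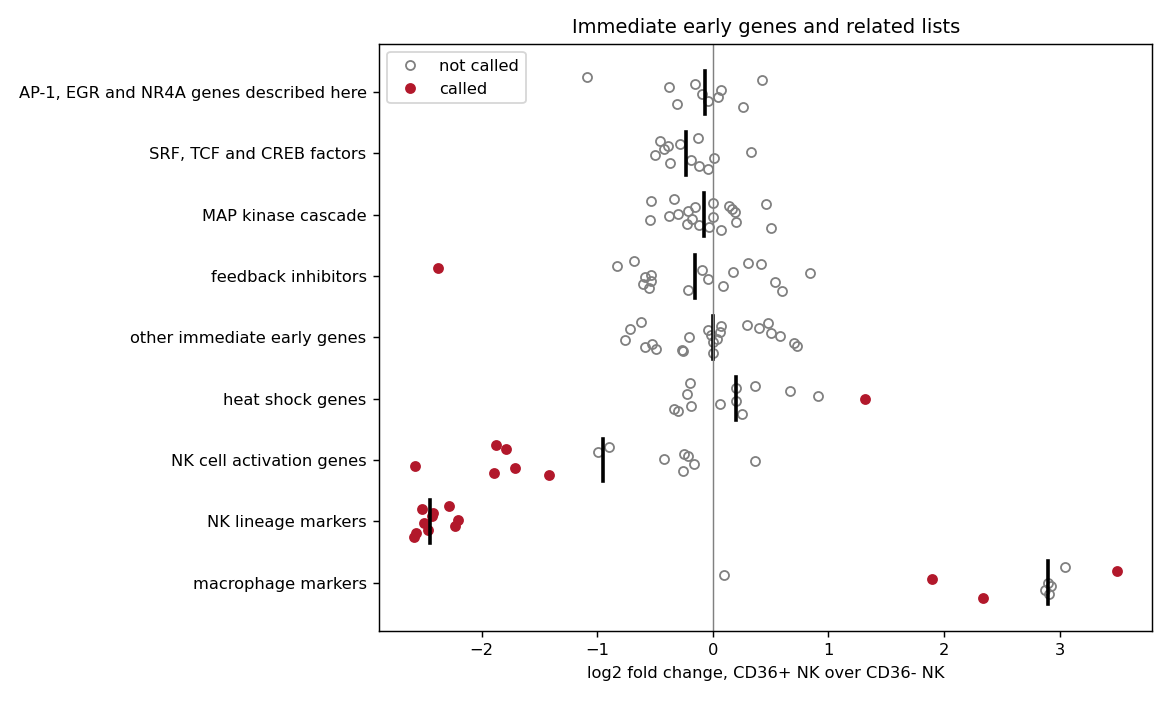
The log2 ratio of CD36+ NK over CD36- NK for each tested gene (points, filled where the gene passed an adjusted p below 0.05 with a fold change above 2) and the median of each list (bars). The 10 AP-1, EGR and NR4A genes are centred at -0.07 with no filled point, NK cell activation genes at -0.95 with 6 filled points, NK lineage markers at -2.45 and macrophage markers at 2.90.

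Markers of the other cell types were as follows, with the same test. The median of the 9 tested macrophage markers was 2.90, with their most expressed gene Lyz2 at 3962 ± 425 against 3710 ± 1451 CPM, and the Kupffer cell markers Clec4f and Vsig4 had too few counts to be tested. Of 9 monocyte markers 1 was higher and 2 were lower (range -1.35 to 1.70), with the most expressed, Chil3, at 269 ± 201 against 437 ± 154 CPM (log2 ratio -0.70). CD36+ NK replicate 1 had 501 CPM of Chil3 and the other CD36+ NK libraries had 139 and 167 CPM, and without replicate 1 the log2 ratio was -1.52 (edgeR adjusted p = 0.0313). Of 9 dendritic cell markers 2 were higher and 1 was lower. Of 8 tested T cell markers 2 were higher and 1 was lower (median log2 ratio 2.28), and without CD36+ NK replicate 1 the median turned to -1.54 and 6 passed. Of 8 neutrophil markers none passed (median -0.08), and without the same library 3 passed and the median was -1.71. Of 8 erythroid markers 5 were higher, summing to 351 to 794 CPM against 76.9 to 171 CPM, while 0 passed without CD36- NK replicate 1 or 3 and 2 without CD36+ NK replicate 2. Of 4 tested platelet markers 2 were higher, with 1 passing without CD36+ NK replicate 2 and 0 without any 1 of the other 5 libraries. None of the 3 tested endothelial markers passed. Hepatocyte markers summed to at most 10.6 CPM and stellate cell markers to at most 6.76 CPM in any library, with Lrat and Rgs5 at 0 throughout.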

How the data were processed

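The authors filtered reads with Seqtk, mapped them with HISAT2 (version 2.0.4 per the submitters' processing notes), obtained fragment counts with StringTie, and deposited the raw counts of 57180 genes together with FPKM values. The lines of 2 genes were broken and were rejoined. The build is not named in the table or the paper. The submitters' processing notes list mRatBN7.2, a rat build, although the gene identifiers are mouse, so the build behind the coordinates and counts is uncertain. The gene coordinates of the table are not on the scale of the GRCm38.p6 promoter windows. Fos starts at 85520664 in the table, and its window is 85473640-85473889, so the 2 sets cannot be compared directly. The deposited FPKM values were used for shares within families and for the order of levels, not for tests.

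Counts were tested with edgeR 4.0.16 in R 4.3.3, by glmQLFit and glmQLFTest with TMM scaling, after filterByExpr (minimum count 10) and with Benjamini-Hochberg adjustment over 14761 genes. The SE of a log2 ratio is its absolute value over the square root of F. A gene passed with more than a 2-fold change at an adjusted p under 0.05, the study's thresholds. No 2 replicates of a group agreed within sampling noise. The script was tested on simulated counts. Genes named are the 10, Cd36, of each list those that passed (at most 3 per direction) and the 2 most expressed, the most expressed NK, macrophage and monocyte marker, and the 5 nearest profiles. The genes and lists were chosen with earlier results of these data known. The exon-union length was added after the FPKM lengths had been seen. Other settings were edgeR's exact test, DESeq2 1.42.0, other scalings, filters, blocks and libraries left out. The result of 1 list, the further genes of the 3 families, is not reported here beyond Atf3 and Mafk.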

Additional observations from a re-analysis of the deposited data

How the results depend on the processing

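The number of immediate early genes that passed was 0 of 10 under each of the 16 alternatives. Of all genes, 880 passed, 1552 with no fold threshold, 560 with the replicate number as a block, 433 with both replicate 1 libraries left out, and 417 to 1160 with 1 library left out (418 without CD36+ NK replicate 2, 451 without replicate 3, 417 without CD36- NK replicate 1, 431 without replicate 3). Libraries with the same replicate number in their titles had correlations of deviations of 0.367, 0.0871 and -0.086. Pairing by the numbers in the library names was not tried, so a pairing of the samples remains unknown. The block by replicate number moved no immediate early gene past the test. The lowest adjusted p among them was 0.0822 for Nr4a3 (edgeR, log2 ratio -0.95). With 1 library left out, the log2 ratio ran from -0.0899 to 0.18 for Fos, -0.20 to 0.13 for Fosb, -0.0260 to 0.20 for Jun, -0.72 to 0.0720 for Egr2 and -0.33 to 0.20 for Egr3, crossing 0 without passing. The ranges of Junb (-0.59 to -0.25), Jund (-0.31 to -0.03), Egr1 (0.01 to 0.64), Nr4a1 (0.10 to 0.66) and Nr4a3 (-1.57 to -0.68) kept their sign, and Nr4a1 was at 0.70 with both replicate 1 libraries left out. Egr2 was at 0.25 with both replicate 1 libraries left out. Other named genes near 0 also crossed it. Rps6ka1 was at -0.00343 with RLE size factors and -0.00366 in DESeq2, Btg1 at -0.00443 in both, Klf6 at 0.00340 with the block and 0.0820 without both replicate 1 libraries, and Crtc2 at -0.00524 there. With 1 library left out the ranges were -0.0368 to 0.0191 for Rps6ka1, -0.13 to 0.0648 for Btg1, -0.21 to 0.24 for Klf6, -0.0379 to 0.0686 for Crtc2, -0.33 to 0.0904 for Mafk, -0.20 to 0.30 for Lyz2, -0.35 to 0.0890 for Coq10b and -0.30 to 0.0902 for Rpl27. In the same fits, the markers that passed ran from 0 to 8 for macrophages, 0 to 5 for erythroid cells, 0 to 6 for T cells, 2 to 6 for monocytes, 0 to 3 for neutrophils, 1 to 3 for dendritic cells, and 0 to 1 for B cells and for platelets, and NK lineage markers were 10 of 10 each time, and activation genes ran from 4 to 7. Without CD36+ NK replicate 1 the median log2 ratio of the T cell markers turned from 2.28 to -1.54. The genes whose SD between replicates was above the median of all genes were 10 of 10, and 7 to 10 in these fits. The cause of these moves was not tested. With counts per exon-union length the share of Nr4a1 in its family was 1.62 percentage points higher in CD36+ NK, and 0.967 by FPKM. With 3 libraries in each group, differences within the intervals of Egr2, Nr4a1 and Nr4a3, among them 2-fold ones, were not excluded.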
